A study of Rattus norvegicus with 12 samples.

Results

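Cytochrome P450 genes were followed in the rat jugular vein before and after it was grafted into the carotid artery. Members were every gene with an array probe whose symbol starts with Cyp followed by a digit and a letter or by 2 digits, and 63 of the 13903 genes with a symbol met this rule. Of these 63 genes, 51 passed the filter on low values, which asks for a signal well above background on 3 or more of the 12 arrays, and 12 did not. Each of the 63 genes was represented by a single probe, the brightest where a gene had more than 1, and Cyp2e1 was the sole member with a further probe.

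Messenger RNA purified from the veins of male rats was labelled with Cy3 and hybridised to single-colour Agilent arrays, 3 arrays a day. Day 0 was the vein of control rats that had no operation, and days 7, 14 and 28 were veins from rats with an external jugular vein to carotid artery bypass, sampled on those days after the operation. The labels name no strain, age, drug or genotype. The series describes the 3 graft samples of a day as independent experiments, while the labels give every array the same replicate number, so the numbers 1 to 3 used here only name arrays, and p-values measure the spread between arrays, which may be technical. RNA came from the whole vessel, so fewer cells of a type and less RNA per cell cannot be told apart.

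P450 enzymes are haem proteins that insert oxygen into small molecules with electrons passed on from a reductase or, in mitochondria, from ferredoxin. Families 1 to 3 mostly clear foreign chemicals in the liver, although the 2J and 2C enzymes of vessels also turn arachidonic acid into epoxides that relax smooth muscle. Family 4 hydroxylates the far end of fatty acids and eicosanoids, and in small arteries one product is a strong constrictor. Other members build steroids and cholesterol, or make and destroy the active forms of vitamins A and D.

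Signals were read on 42136 gene spots an array, of which 71.9% to 82.6% were well above background, and none was saturated. Levels are log2 of the processed signal minus the 75th percentile of the same array, so 0 is that percentile, and a difference of 1 is a doubling. Day 0 replicate 3 had 460 non-uniform spots and day 7 replicate 3 had 393, against 2 to 11 on the other arrays. On day 0 replicate 3, 581 of the 21063 probes tested lay more than 3 log2 units above the mean of the other day 0 arrays, and on day 7 replicate 3, 246 lay that far below the other day 7 arrays. Results that rest on these arrays are given with and without them. Markers of the vein wall were present on day 0: all 6 smooth muscle and all 6 endothelial markers with a probe were detected on all 3 day 0 arrays. All 6 smooth muscle markers fell at each graft day, and of 8 macrophage markers 6, 7 and 5 rose at days 7, 14 and 28.

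A gene was called where the Benjamini-Hochberg adjusted p of the limma fit over all probes was under 0.05. At day 7, 14 of the 51 tested P450 genes fell (27.5%) where 15.4% of all probes fell, and 7 rose (13.7%) where 17.7% of all probes rose. At day 14, 15 fell (29.4%, against 17.4% of all probes) and 12 rose (23.5%, against 20.1%). At day 28, 14 fell (27.5%, against 16.5%) and 5 rose (9.8%, against 17.4%). The median change of the 51 genes was -0.63, -0.35 and -0.59 at the 3 days, and that of all probes was -0.03, 0.02 and 0.01. These 3 comparisons share the day 0 arrays, and the filter can pass a gene through the day on which it is high, so the counts describe the genes that passed and not all 63. A gene undetected on 1 of the days compared entered the test through other days, and its adjusted p there is only a description.

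**Figure D1:**
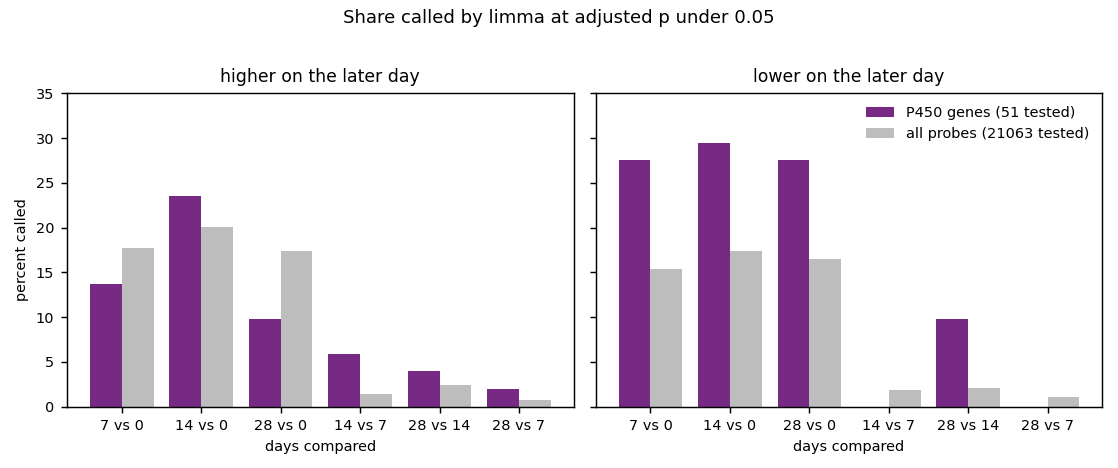
Percent of the tested P450 genes (purple) and of all tested probes (grey) called higher (left) or lower (right) on the later day, for the 6 comparisons of days named under the bars. In the comparisons with day 0 the lower P450 bars stand at 27.5% to 29.4% beside 15.4% to 17.4% for all probes.

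In all, 33 of the 51 genes were called in at least 1 comparison with day 0. Of these, 9 fell at all 3 graft days, namely Cyp4a1, Cyp4a3, Cyp4b1, Cyp4f1, Cyp2c11, Cyp2c23, Cyp2d3, Cyp2t1 and Cyp20a1, and 4 rose at all 3, namely Cyp4v3, Cyp11b2, Cyp7b1 and Cyp2d5. Cyp11b2 passed the filter through the graft days alone. Each comparison alone called 33.1%, 37.5% and 33.9% of all probes at days 7, 14 and 28, and the 3 share the day 0 arrays. Shares of all probes called in any or in all 3 comparisons were not counted, so these counts only describe the genes. Fewer genes were called between graft days. Between days 7 and 14, 3 P450 genes were higher on day 14 (1.38% of all probes were) and none was lower (1.88% of all probes). Between days 14 and 28, 2 were higher on day 28 (2.4% of all probes) and 5 were lower (2.08%), and between days 7 and 28, 1 was higher on day 28 (0.75%) and none was lower (1.03%). Of the 78 calls that these 33 genes made over the 6 comparisons, 44 held when any single array of the 12 was left out, and these belong to 20 genes.

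**Figure D2:**
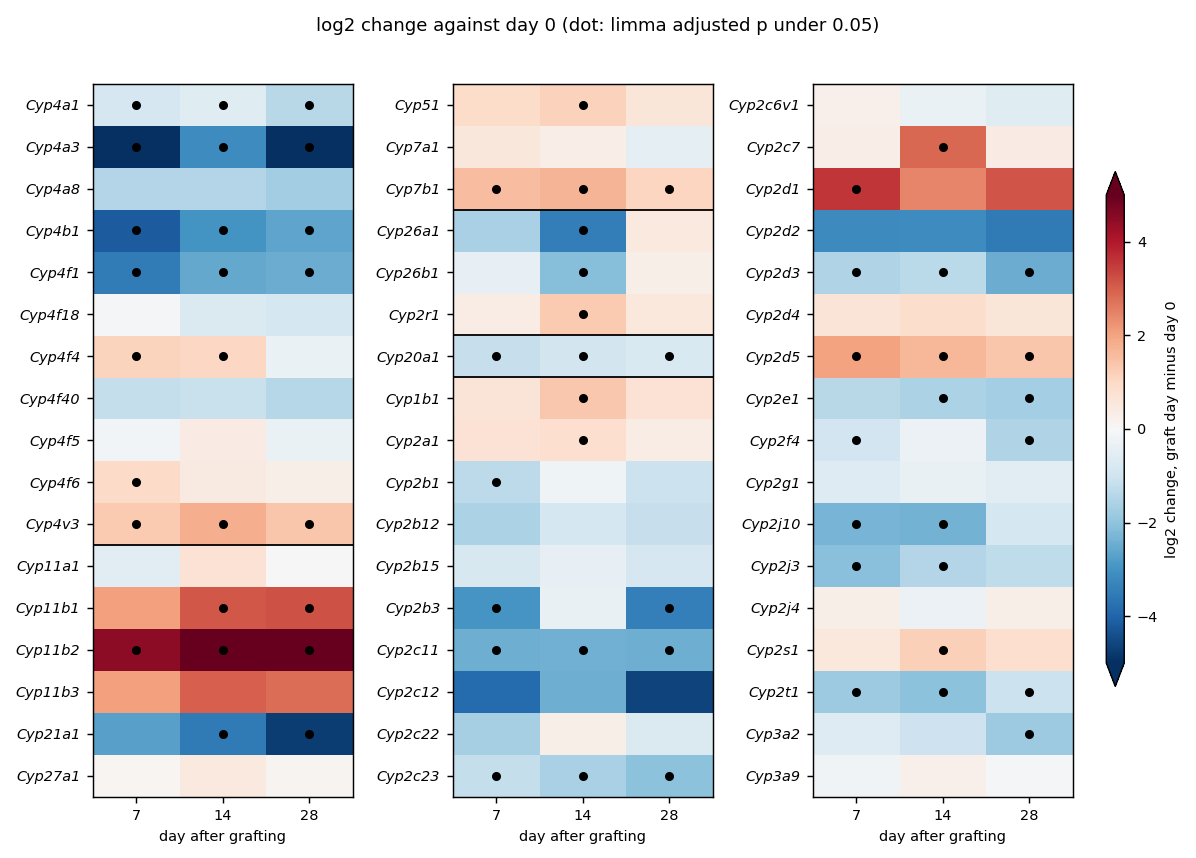
Log2 change of the 51 tested P450 genes at days 7, 14 and 28 against day 0 (colour, red higher and blue lower than day 0, capped at 5), with a dot where the limma adjusted p was under 0.05. Black lines separate family 4, sterol and steroid genes, vitamin A and D genes, Cyp20a1 and families 1 to 3, and the 9 genes with a dot on blue at all 3 days include Cyp4a3 and Cyp4b1.

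Of the called falls at days 7 and 28, the largest was that of Cyp4a3, a fatty acid hydroxylase of family 4 that acts on arachidonic acid. Its promoter is shown because Cyp4a genes are textbook targets of nuclear receptors that bind repeats of the half-site AGGTCA. The window is the 250 bases before the start, chr5:134352237-134352486 in GRCr8 on the minus strand, from RefSeq, with the match to AGGTCA in capitals.
Cyp4a3: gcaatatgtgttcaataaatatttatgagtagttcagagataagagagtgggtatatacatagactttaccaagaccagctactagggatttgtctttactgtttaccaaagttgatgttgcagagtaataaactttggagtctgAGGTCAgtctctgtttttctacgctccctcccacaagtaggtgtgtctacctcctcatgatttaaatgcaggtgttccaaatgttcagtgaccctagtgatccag
AGGTCA was searched on both strands, and its single match begins 105 bases before the start. It occurred in 14.1% of the 33469 windows of this length in the table and in 18 of the 51 members that have a window (35.3%), so the letters are common, and a match is only a description of the window.

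Cyp4a3 lay at -1.7, 0.05 and -0.08 on the day 0 arrays and at -7.36, -8.43 and -7.71 on day 7. It lay at -3.51, -3.65 and -3.98 on day 14 and at -7.69, -8.77 and -7.66 on day 28. No 2 days overlapped except days 7 and 28, on which the probe was not well above background on any array. A fold against such a day is a lower bound, which sets the mean of the bright day against a floor on each dim array (the lowest detected signal there, or the probe's value if that is higher). Cyp4a3 was at least 68.5-fold lower at day 7 (adjusted p = 8.4e-06) and at least 92.2-fold lower at day 28 (adjusted p = 1.11e-05). At day 14 it fell by 3.14 ± 0.49 (SE, 3 arrays a day) on the log2 scale, 8.8-fold (adjusted p = 0.000756). Day 14 was at least 7.79-fold above day 7 (adjusted p = 0.00179) and day 28 at least 10.5-fold below day 14 (adjusted p = 0.00235). These calls held without any single array, but with another background correction, normexp with quantile normalization, the rise from day 7 was 0.83 (adjusted p = 0.2) and the fall to day 28 was -0.81 (adjusted p = 0.148).

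The higher level of Cyp4a3 at day 14 than at days 7 and 28 came on the arrays where Alb was highest. Alb, which encodes serum albumin, lay at -2.41, -1.95 and -2.15 on day 0, between -5 and -4.59 on day 7, at 3.49, 1.38 and 3.95 on day 14 and between -5.01 and -4.52 on day 28. Of 7 hepatocyte markers with a probe, 6 were tested and Tat was never detected, and of the 6, 1 rose and 4 fell at day 7, 3 rose and none fell at day 14, and none rose and 3 fell at day 28. The summed linear level of the 7 was 0.817, 1.24 and 10.7 on day 0, the last on replicate 3, where Fgb (fibrinogen) lay at 3.36 against -1.12 and -0.51. It ran from 1.19 to 2.52 on day 7, from 3.87 to 18.9 on day 14 and from 0.38 to 0.4 on day 28. Cyp4a3 was highest on day 0 and Alb on day 14. Within day 14, 3 arrays are too few to show whether these genes moved together. The part of liver transcripts in the day 14 level of Cyp4a3 was not tested.

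Cyp4b1, which oxidises fatty acids and foreign chemicals in the lung, lay at 1.08, 1.39 and 1.63 on day 0. It lay at -2.84, -2.78 and -2.8 on day 7, at -1.64, -1.63 and -1.59 on day 14 and at -1.17, -2.04 and -0.61 on day 28. Every graft array was below every day 0 array, and the day 7 arrays were below all others. Cyp4b1 fell, with log2 changes of -4.17 ± 0.31, -2.99 ± 0.31 and -2.64 ± 0.31 (SE, 3 arrays a day), or 18-fold, 7.92-fold and 6.24-fold (adjusted p = 1.28e-05, 6.69e-05 and 0.000253). It was the single P450 gene higher at day 28 than at day 7 (1.53 ± 0.31, adjusted p = 0.0384), a call that ended without any of 9 arrays, those other than day 0 replicates 1 and 3 and day 28 replicate 2 (adjusted p 0.0557 to 0.178).

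Cyp4f1, of a subfamily that breaks down leukotrienes, lay at -2.71, -1.83 and -2.02 on day 0. It lay between -6.54 and -5.08 on day 7, between -5.45 and -3.98 on day 14 and between -5.39 and -4.07 on day 28. The graft days overlapped each other but not day 0. Cyp4f1 fell, with log2 changes of -3.5, -2.55 and -2.5 (SE 0.5 each), up to 11.3-fold at day 7 (adjusted p = 0.000573, 0.00272 and 0.00401).

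Cyp4a1, another fatty acid hydroxylase, was measured on only 2 day 0 arrays, at -1.64 and -1.78, because its spot on day 0 replicate 3 was marked non-uniform. It lay between -2.77 and -2.34 on day 7, between -2.54 and -2.21 on day 14 and between -3.16 and -2.95 on day 28. Day 28 was the lowest and overlapped no other day. Cyp4a1 fell, with log2 changes of -0.85, -0.62 and -1.39 (SE 0.2 each) at the 3 days (adjusted p = 0.011, 0.0383 and 0.00117), and a change of -0.77 between days 14 and 28 (adjusted p = 0.0475). The day 14 call ended without any of 7 arrays (adjusted p 0.0562 to 0.125: day 0 replicates 1 and 2, all 3 of day 14, day 28 replicates 1 and 2), and leaving out a measured day 0 array left 1, which was then assumed to vary like the rest. The call between days 14 and 28 ended without any of 8 arrays (adjusted p 0.0519 to 0.192: day 0 replicate 2, day 7 replicate 1 and all of days 14 and 28), and was -0.65 (adjusted p = 0.365) in the authors' deposited table.

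Cyp4v3, a fatty acid hydroxylase whose human relative is mutated in a crystalline retinal dystrophy, moved the other way. It lay at 0.09, 0.38 and -0.09 on day 0 and at 1.44, 1.51 and 1.35 on day 7. It lay at 1.91, 1.81 and 2.09 on day 14 and at 1.49, 1.64 and 1.39 on day 28. Every graft array was above every day 0 array. It rose by 1.31, 1.81 and 1.38 (SE 0.17 each), or 2.47-fold, 3.51-fold and 2.6-fold (adjusted p = 0.00037, 4.31e-05 and 0.000358).

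Another pair of family 4 genes was called. Cyp4f6 lay at 0.55, 0.45 and 0.36 on day 0 and at 1.53, 1.73 and 0.99 on day 7, and rose by 0.96 ± 0.29 at day 7 alone (adjusted p = 0.0272). That call ended without day 0 replicate 2 or 3 or day 7 replicate 1 or 2 (adjusted p 0.0563 to 0.0951), and the sign turned (-0.15) with the slide as a fixed block. Cyp4f4 passed the filter through days 7 and 14 alone, was not well above background on any day 0 array, and lay between -5.66 and -4.49 on day 7 and between -5.5 and -5.08 on day 14. Against day 0 it was raised at least 2.19-fold at day 7 (adjusted p = 0.0281) and at least 2.03-fold at day 14 (adjusted p = 0.0384), and on day 28 it was again undetected, between -6.95 and -6.4. Those adjusted p-values are no support for a rise, since the filter passed Cyp4f4 through the days on which it was high. The day 7 call of Cyp4f4 ended without day 0 replicate 2 or 3 or day 7 replicate 3 (adjusted p 0.0693 to 0.0754, and 0.75 without day 7 replicate 3). With normexp the rises were 0.17 (adjusted p = 0.194) and 0.13 (adjusted p = 0.293). Its day 14 call ended without any of 7 arrays (adjusted p 0.053 to 0.118: day 0 replicates 2 and 3, all of day 14, day 28 replicates 1 and 2). Cyp4a8, Cyp4f5, Cyp4f18 and Cyp4f40 passed no test with all arrays, and Cyp4x1 was detected on no array.

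**Figure D3:**
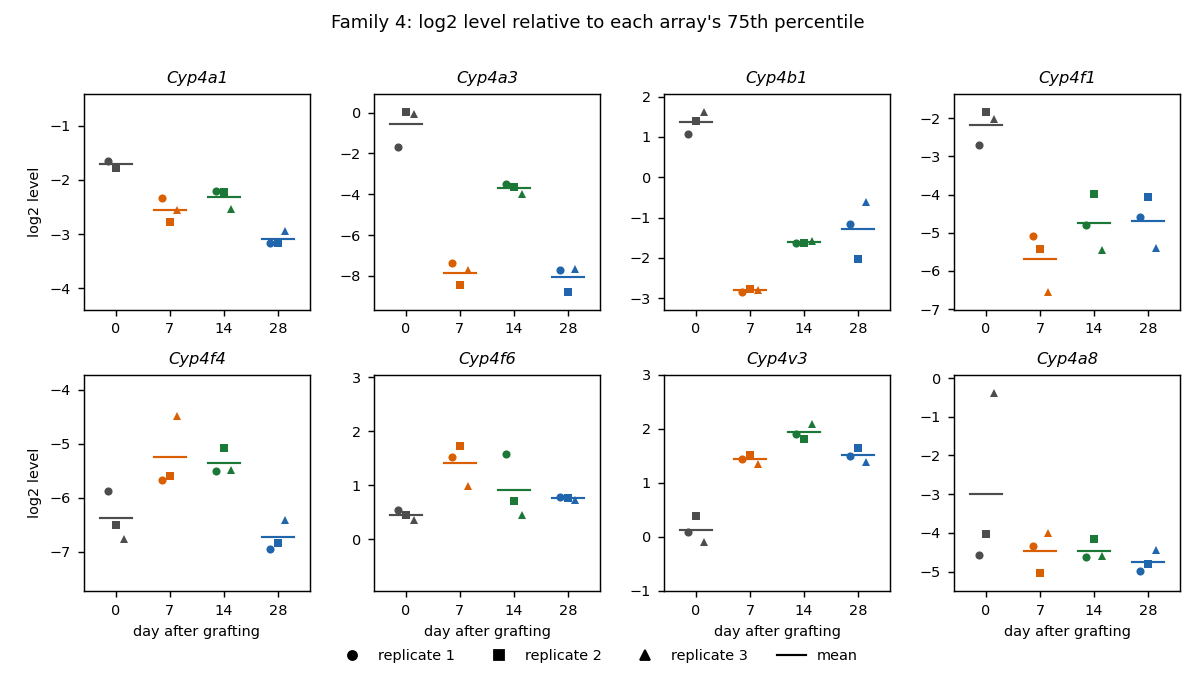
Log2 level on each array (symbols mark replicates, bars the mean of the day) of 8 family 4 genes by day after grafting, each panel on its own axis of at least 4 log2 units. Cyp4a3 stands near 0 on day 0, near -8 on days 7 and 28 and near -3.7 on day 14, and Cyp4a8 is high on day 0 replicate 3 alone (-0.38).

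Among the arachidonic acid epoxygenases of the 2J and 2C subfamilies, Cyp2j3, Cyp2j10, Cyp2c11 and Cyp2c23 fell. Cyp2j3, known from rat heart and vessels, lay at -1.82, -1.49 and -1.53 on day 0. It lay at -3.16, -2.75 and -5.22 on day 7, at -3.09, -3.05 and -3.13 on day 14 and at -2.5, -2.71 and -3.43 on day 28. Every graft array was below day 0. It fell by 2.09 ± 0.53 on the log2 scale at day 7 (4.27-fold, adjusted p = 0.0122), or by 1.34 without day 7 replicate 3, and by 1.47 ± 0.53 at day 14 (adjusted p = 0.0496), while day 28 missed the threshold. The day 14 call ended without any of 10 arrays, those other than day 7 replicates 2 and 3 (adjusted p 0.0554 to 0.115).

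Cyp2j10 lay at -3.92, -5.66 and -5.29 on day 0, and no array of days 7 and 14 had it well above background. It was lower by at least 3.09-fold at day 7 (adjusted p = 0.00946) and at least 3.65-fold lower at day 14 (adjusted p = 0.00722). On day 28 it lay at -5.7, -4.93 and -6.9, which overlaps day 0. Both calls held without any single array.

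Cyp2c23, an epoxygenase of kidney and vessel, lay at -3.77, -2.72 and -2.73 on day 0. It lay at -4.32, -4.55 and -3.92 on day 7, at -4.24, -4.88 and -4.96 on day 14 and at -5.3, -5.22 and -4.92 on day 28. No graft array overlapped day 0. Cyp2c23 fell, with log2 changes of -1.19, -1.62 and -2.07 (SE 0.32 each, adjusted p = 0.0169, 0.00303 and 0.00116), and the day 7 call ended without day 0 replicate 2 or day 7 replicate 1 or 2 (adjusted p 0.0534 to 0.0611). Cyp2c11, the main male form of rat liver and an epoxygenase, lay at -4.67, -3.69 and -3.77 on day 0 and between -8.03 and -5.01 on the 9 graft arrays. Cyp2c11 fell, with log2 changes of -2.43, -2.41 and -2.43 (SE 0.8 each, adjusted p = 0.0393, 0.0361 and 0.0386), and was well above background on 2, 1 and 2 arrays of the 3 graft days. Each of these calls ended with several single omissions. At day 7 these were day 0 replicates 2 and 3, day 7 replicates 1 and 3, day 14 replicate 2 and day 28 replicate 1 (adjusted p 0.0549 to 0.12, and -1.65 without day 7 replicate 3). At day 14 they were day 0 replicates 2 and 3, day 14 replicates 1 and 2 and day 28 replicate 1 (adjusted p 0.0518 to 0.137, between -3.13 and -1.76 over all omissions). At day 28 they were day 0 replicates 2 and 3, day 7 replicate 1, day 14 replicate 2 and all of day 28 (adjusted p 0.0524 to 0.122).

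Cyp2j4, a further epoxygenase named for its role in vessels, passed no test, and its arrays split within days. It lay at -4.81, -3.93 and -4.57 on day 0 and at -4.96, -4.25 and -5 on day 14, but at -2.35, -2 and -8.06 on day 7 and at -3.3, -2.51 and -6.65 on day 28. On replicates 1 and 2 of days 7 and 28 it was above every day 0 array, and on replicate 3 of both days it was below them. The change at day 7 was 0.3 ± 1.48 (adjusted p = 0.9) with all arrays and 2.27 ± 0.98 (adjusted p = 0.107) without day 7 replicate 3. Cyp4a2 and Cyp2u1, also of interest in vessels, are not among the 63 genes.

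The keratin gene Krt18, an epithelial marker, was high on the same 4 arrays as Cyp2j4. Krt18 lay at 0.08, 0.56 and -7.14 on day 7 and at 0.5, 1.29 and -3.05 on day 28, and between -6.44 and -3.43 on the arrays of days 0 and 14. Krt8 too was highest on these 4 arrays, between -0.57 and -0.09, but the other epithelial markers were not. Krt19, for example, was highest on day 0, at 2.12, 2.75 and 2.34. Of 6 epithelial markers tested, 2 fell at day 7, 1 fell and 1 rose at day 14, and 1 fell and 2 rose at day 28. Among all probes 15.4% to 17.4% fell and 17.4% to 20.1% rose at these days. The summed linear level of the 7 epithelial markers with a probe ran from 6.26 to 9.14 on day 0, 2.99 to 4.68 on day 7, 3.24 to 3.97 on day 14 and 2.82 to 5.73 on day 28. Their part in the Cyp2j4 values was not tested.

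Cyp2c7, a liver form that acts on retinoids, was detected on the day 14 arrays only, at -4.95, -4.24 and -5.69, and lay between -8.5 and -7.03 on the other 9. It passed the filter through those 3 arrays alone and so had to differ on them, which makes its folds a description and its adjusted p-values no support for a day 14 pattern. It was at least 2.92-fold higher than on day 0 (adjusted p = 0.000655), at least 3.28-fold higher than on day 7 (adjusted p = 0.012) and at least 4.1-fold higher than on day 28 (adjusted p = 0.015). The day 7 comparison ended without day 14 replicate 1 (adjusted p = 0.0567), and the day 28 comparison without day 14 replicate 1 or 2 (adjusted p = 0.0733 and 0.0555). With normexp the difference from day 7 was 0.35 (adjusted p = 0.0679). Cyp2b3, another liver form, lay at -6.12, -4.94 and -4.93 on day 0 and at -5.43, -6.25 and -5.39 on day 14, which overlap, and was detected on 2 of the 3 day 0 arrays. No array of days 7 and 28 had it well above background, and it was at least 2.53-fold lower than day 0 at day 7 (adjusted p = 0.000818) and at least 3.41-fold lower at day 28 (adjusted p = 0.000473). Day 14 was at least 1.98-fold above day 7 (adjusted p = 0.0123) and at least 2.66-fold above day 28 (adjusted p = 0.00635). The step from day 7 to day 14 ended without day 7 replicate 1 or 2 or day 14 replicate 1 or 3 (adjusted p 0.0528 to 0.0661), and in the authors' deposited table it was 1.45 (adjusted p = 0.0604), beside -1.46 (adjusted p = 0.0501) from day 14 to day 28.

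The probes of Cyp2e1, the ethanol-oxidising form, disagreed. The brighter probe lay at -2.34, -2.82 and -3.09 on day 0, between -5.11 and -3.49 on day 14 and between -4.64 and -4.27 on day 28, and fell, with log2 changes of -1.6 and -1.71 (SE 0.49, adjusted p = 0.0264 and 0.0225). The other probe, printed in 10 spots, lay at -3.67, -4.32 and -4.71 on day 0, at -2.54, -4.21 and -2.17 on day 14 and between -5.37 and -4.93 on day 28. Its change against day 0 was 1.26 at day 14 (adjusted p = 0.0609), opposite in sign to the brighter probe, and it was higher at day 14 than at day 7 by 2.19 (adjusted p = 0.0355) and its change from day 14 to day 28 was -2.2 (adjusted p = 0.032). The mean of both probes gave -0.17 at day 14 and -1.32 at day 28, so the direction of this gene at day 14 is uncertain. The count of 15 falls at day 14 includes it by its brighter probe. The day 14 call of the brighter probe ended without day 0 replicate 1 or 2 or day 14 replicate 1 or 3 (adjusted p 0.0525 to 0.105), and its day 28 call without day 0 replicate 1 or day 28 replicate 1 or 2 (adjusted p 0.0584 to 0.0694).

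Genes of family 1 and the related Cyp2s1 are best known as targets of the dioxin receptor Ahr. Cyp1b1, which oxidises oestrogens and fatty acids in muscle and stromal cells, is shown with its promoter because it was the family 1 gene that passed the filter. The window is the 250 bases before the start, chr6:21094315-21094564 in GRCr8 on the plus strand, with matches to the core of the Ahr response element, GCGTG, in capitals on either strand.
Cyp1b1: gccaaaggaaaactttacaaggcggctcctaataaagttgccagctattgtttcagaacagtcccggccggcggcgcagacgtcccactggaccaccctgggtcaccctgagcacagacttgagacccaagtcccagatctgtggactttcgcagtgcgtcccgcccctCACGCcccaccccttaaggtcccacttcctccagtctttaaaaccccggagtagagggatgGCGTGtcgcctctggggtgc
The window holds 2 matches, 1 on each strand, and GCGTG occurred in 25.9% of all windows and in 13 of the 51 members with a window (25.5%). Cyp1b1 lay at -1.23, -1.2 and -2.37 on day 0, at -0.6, -0.6 and -1.68 on day 7, at -0.45, 0.02 and -0.31 on day 14 and at -0.74, -0.5 and -1.34 on day 28. Day 14 alone did not overlap day 0. It rose by 1.35 ± 0.4 at day 14 (2.55-fold, adjusted p = 0.0216), a call that ended without day 0 replicate 3 (0.97, adjusted p = 0.0632) or day 14 replicate 2 or 3 (adjusted p = 0.0706 and 0.0548). Cyp1a1 and Cyp1a2 did not pass the filter.

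Cyp2s1 lay at -2.09, -2.15 and -3.47 on day 0 and at -1.31, -1.58 and -1.26 on day 14, when it rose by 1.19 ± 0.35 (adjusted p = 0.0233, ended without day 14 replicate 1 or 3, adjusted p = 0.0698 and 0.0735). Without day 0 replicate 3 the Cyp2s1 rise was 0.74, still called. Ahr lay between -3.84 and -3.5 on day 0 and between -2.34 and -0.96 on the graft arrays, and rose by 1.73, 1.96 and 2.29 (SE 0.3) at the 3 days (adjusted p = 0.00196, 0.000738 and 0.000512). Ahrr, the repressor of Ahr and itself an Ahr target, lay at -0.85, 0.34 and -0.01 on day 0 and between -5.26 and -3.74 after grafting. Ahrr fell, with log2 changes of -4.41, -3.68 and -4.61 (SE 0.32, adjusted p = 1.12e-05, 2.46e-05 and 1.35e-05). The part of Ahr in the Cyp1b1 and Cyp2s1 values was not tested.

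Cyp2t1 had among the most repeatable patterns of family 2. It lay at 0.67, 0.93 and 0.55 on day 0, at -0.92, -0.87 and -1.52 on day 7, at -1.39, -1.43 and -1.25 on day 14 and at -0.49, -0.48 and -0.16 on day 28. Every graft array was below day 0, and day 28 was above days 7 and 14. Cyp2t1 fell, with log2 changes of -1.82, -2.07 and -1.09 (SE 0.21 each, adjusted p = 0.000175, 6.5e-05 and 0.00357). From day 14 to day 28 it rose by 0.98 ± 0.21 (adjusted p = 0.0309), which ended without day 7 replicate 1 or any array of days 14 and 28 (adjusted p 0.0531 to 0.131).

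The Cyp2d genes, drug-oxidising forms that are related copies, moved in both directions. A probe may take up signal from a copy, and probe sequences were not examined, so which copy was measured is uncertain. Cyp2d5 lay at -2.44, -2.46 and -3.17 on day 0, at -0.45, -0.46 and -1.11 on day 7, at -0.76, -1.86 and -0.49 on day 14 and at -1.16, -0.81 and -1.94 on day 28. It rose by 2.02, 1.66 and 1.39 (SE 0.41 each) without overlap (adjusted p = 0.00417, 0.00987 and 0.0253), and the day 28 call ended without day 0 replicate 3 or day 28 replicate 1 or 2 (adjusted p 0.0739 to 0.0946). Cyp2d1 lay at -1.63, -4.22 and -6.22 on day 0, a wide spread, and at 0.05, 0.12 and -1.52 on day 7, when it rose by 3.57 ± 1.13 (adjusted p = 0.034). The Cyp2d1 call ended without day 0 replicate 2 or 3 or day 7 replicate 1 or 2 (adjusted p 0.0795 to 0.0989, between 2.47 and 4.76 over all omissions).

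Cyp2d3 went down, from -2.51, -1.11 and -1.41 on day 0 to -3.33, -3.77 and -2.45 on day 7, -3.22, -2.31 and -3.57 on day 14 and -4.29, -4.5 and -3.74 on day 28. Days 7 and 14 overlapped day 0 by 1 array each, and day 28 did not. Cyp2d3 fell, with log2 changes of -1.5, -1.36 and -2.5 (SE 0.47 each, adjusted p = 0.0321, 0.0436 and 0.00303). The day 7 call ended without day 0 replicate 2 or 3 or day 7 replicate 1 or 2 (adjusted p 0.0759 to 0.111). The day 14 call ended without any of 8 arrays (adjusted p 0.0509 to 0.152: day 0 replicates 2 and 3, day 7 replicate 1, day 14 replicates 1 and 3 and all of day 28).

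The other called genes of families 1 to 3 changed at 1 or 2 graft days. Cyp2f4, a lung form, lay at -2.2, -1.67 and -1.79 on day 0 and at -3.44, -3.58 and -3.15 on day 28. It fell by 0.96 ± 0.26 at day 7 (adjusted p = 0.0166, ended without day 0 replicate 2 or day 7 replicate 2, adjusted p = 0.0532 and 0.0577) and by 1.5 ± 0.26 at day 28 (adjusted p = 0.00192) on the log2 scale. The change from day 14 to day 28 was -1.2 (adjusted p = 0.0311), a call that ended without day 7 replicate 1 or any array of days 14 and 28 but day 14 replicate 2 (adjusted p 0.0527 to 0.144). Cyp3a2, a male liver form that oxidises testosterone, lay at -3.9, -2.36 and -3.46 on day 0 and at -5.2, -5.29 and -4.64 on day 28, and fell by 1.8 ± 0.46 on the log2 scale (adjusted p = 0.0129). That call held without any single array.

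Cyp2b1, the classic phenobarbital-inducible form, lay at -4.33, -3.75 and -4.94 on day 0 and at -5.01, -5.48 and -6.43 on day 7. It fell by 1.3 ± 0.41 on the log2 scale (adjusted p = 0.033, ended without day 0 replicate 1 or 2 or day 7 replicate 2 or 3, adjusted p 0.0599 to 0.107). Cyp2a1, a liver form, lay at -4.7, -3.99 and -5.1 on day 0 and at -3.6, -3.88 and -3.78 on day 14. It rose by 0.84 ± 0.27 (adjusted p = 0.0327, ended without day 0 replicate 1 or 3 or any day 14 array, adjusted p 0.0572 to 0.107, and 0.59 without day 0 replicate 3).

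**Figure D4:**
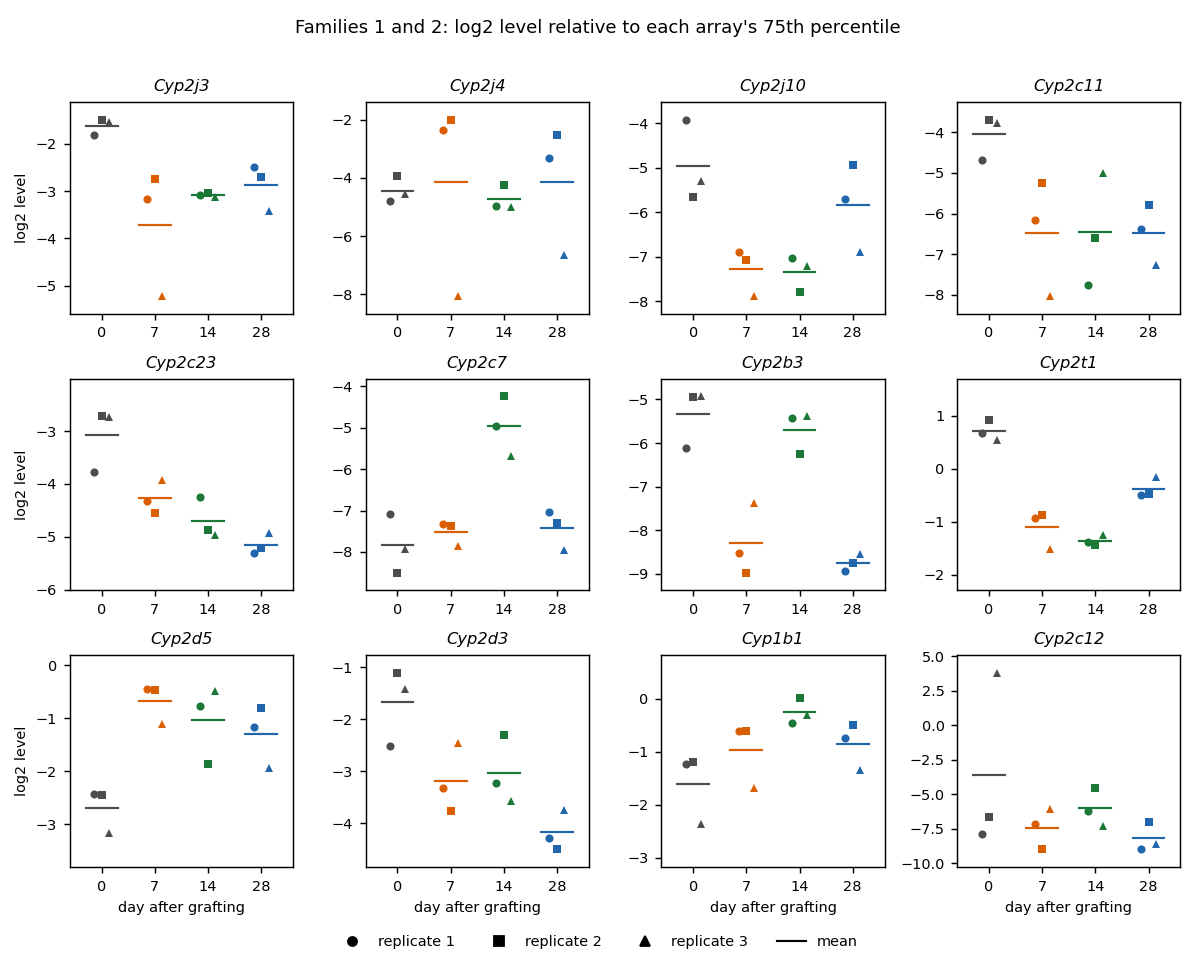
Log2 level on each array (symbols mark replicates, bars the mean of the day) of 12 genes of families 1 and 2 by day after grafting, each panel on its own axis of at least 4 log2 units. Cyp2c7 is high on the day 14 arrays only, Cyp2j4 splits within days 7 and 28, and Cyp2c12 is high on day 0 replicate 3 alone (3.79).

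Steroid genes went opposite ways. Cyp11b1 makes corticosterone and Cyp11b2 makes aldosterone, both in the adrenal cortex, and Cyp11b3 is a close copy of them. Cyp11b1 lay at -1.69, -2.14 and -2.17 on day 0, at 0.08, -0.55 and 0.63 on day 7, at 1.09, 0.95 and 1.26 on day 14 and at 1.73, -1.08 and 2.93 on day 28. Every graft array was above day 0. It rose by 3.1 ± 0.79 at day 14 (8.59-fold, adjusted p = 0.0112) and by 3.2 ± 0.79 at day 28 (9.16-fold, adjusted p = 0.0114), while day 7 missed the threshold.

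Cyp11b2 was not well above background on any day 0 array, and lay at -3.35, -4.61 and -2.78 on day 7, at -2.31, -2.66 and -2.32 on day 14 and at -2.01, -5.77 and -0.77 on day 28. It was at least 7.6-fold, 16.9-fold and 12.6-fold higher than on day 0 (adjusted p = 0.00706, 0.00173 and 0.00353), but with normexp the day 7 rise was 0.96 (adjusted p = 0.173). It passed the filter through the graft days alone, on which it was high, so these adjusted p-values are no support for a rise. Cyp11b3 lay at -5.59, -4.07 and -8 on day 0, at -2.74, -3.39 and -2.6 on day 14 and at -2.54, -5.44 and -1.28 on day 28, and its changes of 2.06, 2.98 and 2.8 missed the threshold (adjusted p = 0.194, 0.0636 and 0.0833). On all 3 probes day 28 replicate 2 was the lowest and day 28 replicate 3 the highest of that day. These genes are related and the probe sequences were not examined. The 3 probes may read 1 transcript, and which gene gave the signal is uncertain. Without day 28 replicate 2, the day 28 rise was 4.33 for Cyp11b1 and 6.66 for Cyp11b2 on the log2 scale, and without replicate 3 it was 2.33 and 4.16.

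Cyp21a1, the steroid hydroxylase needed for both hormones, moved against them. Its promoter is shown because it is a textbook target of SF-1, the adrenal and gonadal factor that binds AAGGTCA. The window is the 250 bases before the start, chr20:4028141-4028390 in GRCr8 on the plus strand, with the match in capitals.
Cyp21a1: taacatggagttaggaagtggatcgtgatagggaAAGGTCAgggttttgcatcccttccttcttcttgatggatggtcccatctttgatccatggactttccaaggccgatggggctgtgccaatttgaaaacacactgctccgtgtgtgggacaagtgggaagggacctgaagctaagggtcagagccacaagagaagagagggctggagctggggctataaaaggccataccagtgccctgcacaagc
The single match begins 216 bases before the start, and AAGGTCA, which contains AGGTCA, occurred on either strand in 3.99% of all windows and in 4 of the 51 members with a window (7.84%).

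Cyp21a1 lay at 3.14, 4.64 and 7.54 on day 0, at 1.63, 1.17 and 4.4 on day 7, at 1.57, 2.62 and 0.55 on day 14 and at 0.32, 0.39 and 0.34 on day 28. Days 14 and 28 did not overlap day 0, and day 0 replicate 3 and day 7 replicate 3 stood above the other arrays of their days. It fell by 4.75 ± 1.09 at day 28 (27-fold, adjusted p = 0.00819) and by 3.53 ± 1.09 at day 14 (11.5-fold, adjusted p = 0.0278) on the log2 scale. The day 7 change, -2.71, missed the threshold (adjusted p = 0.0827). Without day 0 replicate 3 the values were -1.49 at day 7 (adjusted p = 0.236), -2.31 at day 14 (adjusted p = 0.0795) and -3.54 at day 28, still called. Without day 7 replicate 3 the day 7 change was -3.7 (adjusted p = 0.0252), and without both arrays all 3 days were called, at -2.49, -2.31 and -3.54 (adjusted p = 0.0171, 0.013 and 0.00227). The day 14 call also ended without day 14 replicate 1 or 3 (adjusted p = 0.0704 and 0.101).

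Other markers of steroid-making tissue did not move as a set. Of the 3 adrenal or gonadal markers with a probe, Hsd3b1 lay at 1.01, 0.52 and -0.07 on day 0 and between -6.66 and -4.33 after grafting, and fell, with log2 changes of -5.67, -5.43 and -5.69 (SE 0.58, adjusted p = 8.94e-05, 8.49e-05 and 0.000131). Star lay between -5.02 and -4.18 on day 0 and between -3.74 and -2.4 on day 14, when it rose by 1.76 ± 0.48 (adjusted p = 0.0157), and Cyp11a1 passed no test. The summed linear level of the 3 ran from 0.988 to 2.08 on day 0, from 0.0729 to 0.0875 on day 7, from 0.136 to 0.238 on day 14 and from 0.09 to 0.194 on day 28. Their part in the Cyp11b and Cyp21a1 values was not tested.

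Of the sterol genes, Cyp7b1 rose at all 3 graft days and Cyp51 at day 14 alone. Cyp7b1, which hydroxylates oxysterols, lay at -4.76, -5.13 and -4.57 on day 0, at -3.44, -3.99 and -2.4 on day 7, at -3.14, -3.34 and -2.92 on day 14 and at -3.66, -3.63 and -3.91 on day 28. All graft arrays were above day 0, and the rises were 1.54, 1.68 and 1.09 (SE 0.35 each; adjusted p = 0.00703, 0.00377 and 0.0348). The day 28 call ended without day 0 replicate 1 or 2, day 14 replicate 1 or any day 28 array (adjusted p 0.0527 to 0.0995), and with normexp it was 0.46 (adjusted p = 0.104).

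Cyp51, the lanosterol demethylase of cholesterol synthesis, lay at -0.45, -0.59 and -1.48 on day 0 and at 0.28, 0.41 and 0.26 on day 14. It rose by 1.16 ± 0.37 at day 14 alone (adjusted p = 0.0329, ended without day 0 replicate 3 or any day 14 array, adjusted p 0.0755 to 0.1). Of 15 other genes of cholesterol synthesis and uptake, 5, 5 and 4 rose and 2 fell at days 7, 14 and 28. The shares of all probes were 17.4% to 20.1% higher and 15.4% to 17.4% lower, and the list was not tested as a set. Lss, the enzyme just before Cyp51, rose by 1.07, 1.15 and 1.02 (SE 0.19), and Sqle, before Lss, rose by 1.18, 1 and 1.1 (SE 0.3). Fdft1, at the entry to the sterol branch, fell, with log2 changes of -1.52, -1.08 and -1.58 (SE 0.31), and Sc5d, near its end, fell, with log2 changes of -1.07, -1.06 and -1.38 (SE 0.26), all. Cyp27a1 and Cyp7a1, which start bile acid synthesis, passed no test, and Cyp8b1 and Cyp39a1 were detected on no array.

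**Figure D5:**
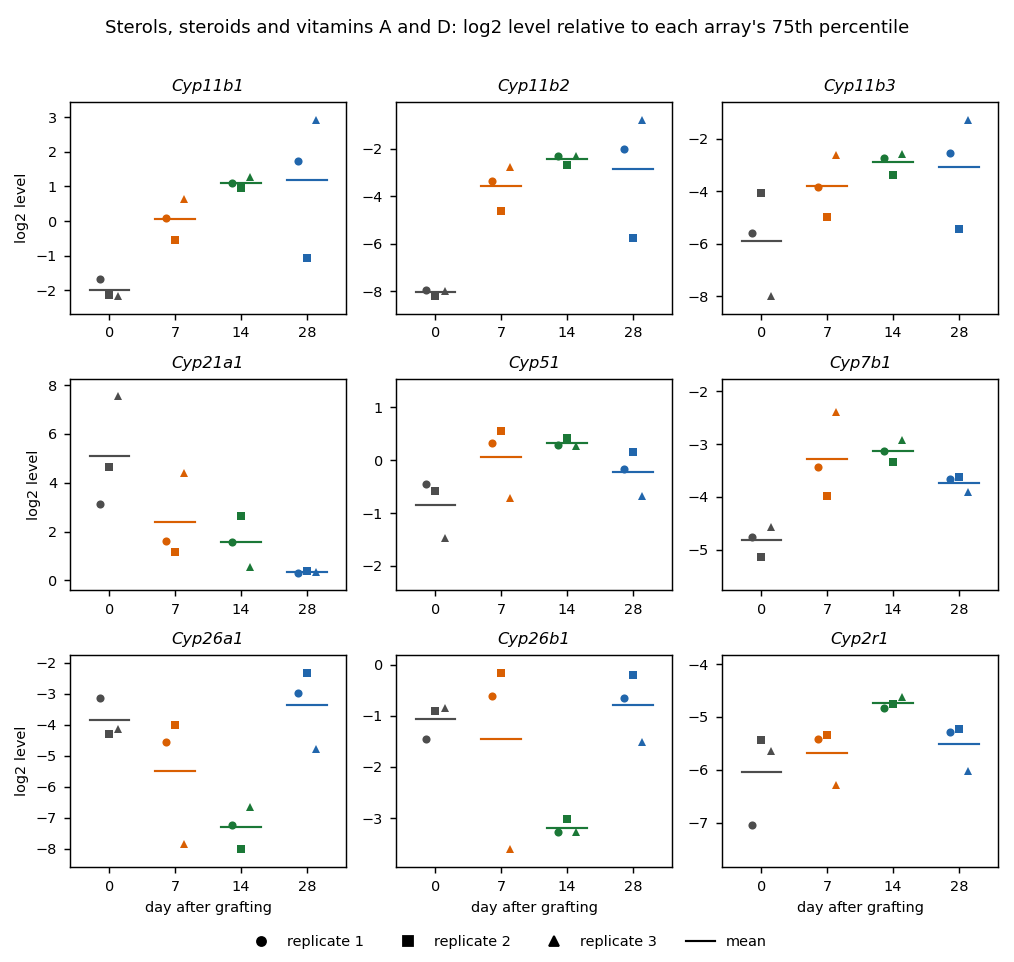
Log2 level on each array (symbols mark replicates, bars the mean of the day) of 9 genes of steroids, sterols and vitamins A and D by day after grafting, each panel on its own axis of at least 4 log2 units. Day 28 replicate 2 is low in all 3 Cyp11b panels, and Cyp26a1 and Cyp26b1 are low on the day 14 arrays and on day 7 replicate 3.

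Cyp26a1 and Cyp26b1, which destroy retinoic acid and so limit its signal, were lowest at day 14. The promoter of Cyp26a1 is shown because the gene is a textbook target of retinoic acid itself through a direct repeat of half-sites with 5 bases between them. The window is the 250 bases before the start, chr1:244883572-244883821 in GRCr8 on the plus strand, with the half-sites of a match to TGAACTNNNNNTGAACT in capitals.
Cyp26a1: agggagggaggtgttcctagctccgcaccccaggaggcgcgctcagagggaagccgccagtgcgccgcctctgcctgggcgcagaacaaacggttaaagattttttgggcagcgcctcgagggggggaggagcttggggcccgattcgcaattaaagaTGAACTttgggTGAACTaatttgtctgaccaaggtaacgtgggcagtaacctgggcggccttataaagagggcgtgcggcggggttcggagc
The repeat begins 92 bases before the start. It occurred, on either strand, in 3 of all 33469 windows (0.00896%) and in no other member with a window.

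Cyp26a1 lay at -3.14, -4.3 and -4.13 on day 0, at -4.57, -4.02 and -7.84 on day 7, at -7.24, -8.01 and -6.64 on day 14 and at -2.99, -2.33 and -4.78 on day 28. On day 14 it was not well above background on any array, and it was at least 8.23-fold lower than on day 0 (adjusted p = 0.0159) and at least 11.5-fold lower than on day 28 (adjusted p = 0.0451). Day 7 replicate 3 was as low as the day 14 arrays, while the other day 7 arrays were within or just below the day 0 range. The call against day 0 ended without day 14 replicate 2 (adjusted p = 0.0559), and the call against day 28 without any of 7 arrays (adjusted p 0.0541 to 0.171: day 0 replicate 2, day 7 replicate 1, all of day 14, day 28 replicates 1 and 2). With normexp the values were -0.77 against day 0 (adjusted p = 0.0603) and 1.12 from day 14 to day 28 (adjusted p = 0.0522).

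Cyp26b1 lay at -1.45, -0.9 and -0.84 on day 0, at -0.61, -0.16 and -3.61 on day 7, at -3.27, -3.01 and -3.28 on day 14 and at -0.65, -0.2 and -1.51 on day 28. Again day 14 and day 7 replicate 3 were low and the other 8 arrays were high. It fell by 2.12 ± 0.74 on the log2 scale at day 14 (4.36-fold, adjusted p = 0.0443), a call that ended without any single array of days 0, 14 and 28 (adjusted p 0.0508 to 0.107) and that was -1.48 (adjusted p = 0.0535) with normexp. Of 10 retinoid-handling genes tested, 1 rose and 1 fell at day 7, and 2 rose and 2 fell at days 14 and 28. At the 3 graft days 17.4% to 20.1% of all probes rose and 15.4% to 17.4% fell, and the list was not tested as a set. Aldh1a1 was never detected. Rdh10, which makes the precursor of retinoic acid, rose by 1.14, 1.25 and 1.15 (SE 0.24), and Dhrs3, which returns that precursor to retinol, fell, with log2 changes of -1.03, -1.13 and -1.28 (SE 0.2).

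Of the vitamin D genes, Cyp2r1, which carries out the liver step of vitamin D activation, lay at -7.04, -5.44 and -5.65 on day 0, where 1 of 3 arrays was above background. It lay at -4.83, -4.75 and -4.63 on day 14 and rose by 1.31 ± 0.42 (adjusted p = 0.0322), or by 0.81 without day 0 replicate 1 (adjusted p = 0.0743). That call also ended without any day 14 array (adjusted p 0.071 to 0.0904 over all omissions that ended it), and with normexp it was 0.26 (adjusted p = 0.0618). Cyp24a1, which degrades active vitamin D, did not pass the filter. Cyp20a1, whose substrate is unknown, lay at 2.63, 2.8 and 2.85 on day 0 and between 1.34 and 2.13 on all graft arrays. Cyp20a1 fell, with log2 changes of -1.15, -0.91 and -0.77 (SE 0.19 each, adjusted p = 0.00131, 0.00381 and 0.0108), and these calls held without any single array.

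The slides were inferred: arrays with the same scan time in the file headers were taken as 1 slide. No slide defined in this way held every day. Slide 1 held day 14 replicates 2 and 3 with day 28 replicates 1 and 2, slide 2 held day 7 and day 14 replicate 1, slide 3 held day 0 replicates 1 and 2 with day 28 replicate 3, and slide 4 held day 0 replicate 3. Day 0 replicate 3 had array position 4, and the slide 3 arrays had positions 1, 2 and 3. Whether it lay on their slide and was scanned at another time is not known. Within a slide that held both days, all 29 differences that could be formed had the direction of the call. They reuse arrays that made the calls and were formed for called genes alone, so a shared direction is no separate support. On slide 3, day 28 minus day 0 was -6.84 for Cyp4a3, -1.84 for Cyp4b1, -3.12 for Cyp4f1, 1.15 for Cyp4v3, 4.85 for Cyp11b1, 7.31 for Cyp11b2 and -3.55 for Cyp21a1. Cyp2d5 was 0.51 there, against 1.39 over all arrays. On slide 1, day 28 minus day 14 was -4.41 for Cyp4a3, 4.66 for Cyp26a1 and -2.2 for Cyp2c7. On slide 2, day 14 minus day 7 was 4.32 for Cyp4a3. Each of Cyp4a3, Cyp11b2, Cyp26a1 and Cyp2c7 was undetected on 1 of the days compared, so its sizes are only a description.

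With the slide as a fixed block, 9 of the 78 calls were kept. In that fit 0, 2 and 6 P450 genes were called at days 7, 14 and 28 against day 0, where 55, 1034 and 1363 of all probes were. No slide held day 0 with day 7 or day 14, so those comparisons passed through day 28. Day 0 replicate 3, alone by its scan time, added nothing, so the fit rested on day 0 replicates 1 and 2. The loss of that array and the slide cannot be told apart in this fit. The kept calls were Cyp4a3 at day 28 (-6.84, adjusted p = 0.00793) and from day 14 to 28 (-4.41, adjusted p = 0.0437), Cyp4b1 at day 28 (-1.84, adjusted p = 0.034), Cyp4a1 at day 28 (-1.24, adjusted p = 0.0424), and Cyp4v3 at day 14 (1.55, adjusted p = 0.0446) and day 28 (1.15, adjusted p = 0.0439). The rest were Cyp11b1 at day 28 (4.85, adjusted p = 0.0391) and Cyp11b2 at day 14 (8.71, adjusted p = 0.0395) and day 28 (7.31, adjusted p = 0.0309). Cyp11b2 was undetected on day 0 and passed the filter through the graft days alone, so its adjusted p-values are no support for a rise here either. Cyp4a3 was undetected on days 7 and 28. The sizes given for both genes set a signal against an undetected one and are only a description. Cyp4a3 at day 7 was -6.74 (adjusted p = 0.114) and Cyp4b1 was -3.01 (adjusted p = 0.123) in this fit. For 9 of the 78 calls, in 6 genes, the value was under 0.5 of the reported change. These were Cyp2d5 at the 3 days (0.42, 0.33 and 0.51), Cyp2d1 at day 7 (0.33), Cyp2d3 at days 7 and 14 (-0.43 and -0.47), Cyp1b1 at day 14 (0.34), Cyp51 at day 14 (0.2) and Cyp4f6 at day 7 (-0.15). For 8 calls, in 5 genes, it was over 1.5 times that change, among them Cyp2j10 at days 7 and 14 (-4.54 and -4.29), neither called. With the slide as a random block (correlation 0.169), 66 of the 78 calls were kept. Cyp11b3, not among the 78, was called at day 14 in that fit (3.42, adjusted p = 0.0457).

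Some P450 genes were high on day 0 replicate 3 alone, and are named here because of their values. Cyp2c12, the form typical of female rat liver, lay at -7.91, -6.61 and 3.79 on day 0 and between -8.98 and -4.58 on every graft array. Cyp2d2 lay at -0.73, -0.27 and 5.29 on day 0 and between -2.36 and -1.27 on the graft arrays, with day 7 replicate 3 left out as non-uniform. Cyp4a8 lay at -0.38 on that array and at or below -3.99 on all others, and Cyp4f40 at -0.61 and at or below -3.7. Cyp2b12 lay at -1.93 on that array and at or below -4.18 on all others, and Cyp2b15 at -1.83 and at or below -2.97. The spots within 6 rows and 2 columns of these genes and of Cyp21a1 were compared with the other day 0 arrays. They differed by a median of -0.59 to -0.08, so the neighbouring spots were not high.

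Without day 0 replicate 3, Cyp2d2 was -1.24, -1.23 and -1.61 at the 3 days and passed the test at each (adjusted p = 0.0239, 0.0161 and 0.00611), whereas with all arrays its larger changes of -3.17, -3.15 and -3.54 did not (adjusted p = 0.124, 0.0835 and 0.0613). Cyp2c12 gave -0.15, 1.23 and -0.92 without that array and -3.83, -2.45 and -4.61 with it, called in neither. Without both arrays with many non-uniform spots, 24, 26 and 25 P450 genes were called at days 7, 14 and 28 against day 0, beside 21, 27 and 19 with all arrays. Calls over all probes rose as well, from 33.1%, 37.5% and 33.9% to 38.9%, 45.6% and 44.2%. Cyp4f40 at day 28 was -0.38 without both arrays and was called (adjusted p = 0.047). Its larger change of -1.42 with all arrays was not called (adjusted p = 0.124), nor was -0.38 without day 0 replicate 3 alone (adjusted p = 0.0731).

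Some partners of the P450 enzymes were called. Of 10 electron donor and haem genes, 1, 2 and 2 rose and 2, 3 and 1 fell at days 7, 14 and 28. Beside them, 17.7%, 20.1% and 17.4% of all probes rose and 15.4%, 17.4% and 16.5% fell, so these counts only describe the list. Fdx1, the ferredoxin that feeds mitochondrial P450 enzymes such as those of the Cyp11 family, lay between -0.33 and 0.19 on day 0 and between -1.44 and -0.85 after grafting, and fell, with log2 changes of -0.95, -1.31 and -0.92 (SE 0.18, adjusted p = 0.00262, 0.000311 and 0.00334). Hmox1, which breaks down haem, rose by 2.74 at day 14 and by 3.68 at day 28 (SE 0.63; adjusted p = 0.00673 and 0.00192). Of 18 regulators of P450 genes, 2, 1 and 1 rose and 4, 6 and 6 fell at the 3 days, beside the same shares of all probes. This list was not tested as a set. Nr1h4, the bile acid receptor, fell, with log2 changes of -2.83, -2.61 and -3.09 (SE 0.27), and Nr1i2, the receptor for foreign chemicals, had log2 changes of -0.75 at day 14 and -1.26 at day 28 (SE 0.2), both called.

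Of 16 genes in other branches of eicosanoid metabolism, 6, 6 and 7 rose and 0, 3 and 1 fell at days 7, 14 and 28. Over all probes 17.7%, 20.1% and 17.4% rose and 15.4%, 17.4% and 16.5% fell, and the list was not tested as a set. Tbxas1, the thromboxane synthase of platelets and macrophages, which has the P450 fold, lay at -1.69, -3.82 and -3.76 on day 0 and between 0.9 and 2.53 after grafting, and rose by 4.26, 5.17 and 4.21 (SE 0.52; adjusted p = 0.000227, 5.7e-05 and 0.000329). Alox5ap, needed for leukotriene synthesis, rose by 3.21, 2.68 and 2.02 (SE 0.53), and Pla2g4a, which frees arachidonic acid, by 1.61, 1.46 and 2.04 (SE 0.34). Macrophage markers rose on the same days: the summed linear level of the 8 markers ran from 29.2 to 119 on day 0, 472 to 874 on day 7, 692 to 728 on day 14 and 424 to 554 on day 28, and their part in this result was not tested.

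Markers of fat also moved with the P450 genes that fell. Of 7 adipocyte markers with a probe, 6, 7 and 6 fell at days 7, 14 and 28 and none rose, and their summed linear level went from 68 to 85 on day 0 to 12.8 to 13.7, 11.3 to 20.9 and 16.3 to 24.5. Endothelial markers ran from 45.4 to 58.7 on day 0, from 7.08 to 11 on day 7, from 12.4 to 14.3 on day 14 and from 17 to 32.1 on day 28, summed over 6. The smooth muscle sum over 6 markers went from 717 to 1230 on day 0 to between 116 and 234 after grafting. The part of these cell types in the P450 falls was not tested.

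Of the 18 tested genes that were called in no comparison, 11, 13 and 12 lay within 1 log2 unit of day 0 at days 7, 14 and 28. They were Cyp11a1, Cyp11b3, Cyp27a1, Cyp2b12, Cyp2b15, Cyp2c12, Cyp2c22, Cyp2c6v1, Cyp2d2, Cyp2d4, Cyp2g1, Cyp2j4, Cyp3a9, Cyp4a8, Cyp4f18, Cyp4f40, Cyp4f5 and Cyp7a1. Of all 63 genes, 31 were well above background on all 12 arrays. The 12 that did not pass were Cyp1a1, Cyp1a2, Cyp24a1, Cyp2a2, Cyp2a3, Cyp2b21, Cyp2c13, Cyp39a1, Cyp3a18, Cyp3a23-3a1, Cyp4x1 and Cyp8b1, of which 6 were detected on no array and 6 on 1 or 2. Just inside the threshold, Cyp2c12 and Cyp2c7 were detected on 3 arrays, with day means from -8.18 to -3.57 and from -7.84 to -4.96. Just outside it, Cyp2a2 and Cyp2a3 were detected on 2, with day means from -7.02 to -6.62 and from -8.76 to -6.7.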

How the data were processed

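RNA of 12 rat vein samples, 3 a day at days 0, 7, 14 and 28, was measured on single-colour arrays. Per the file headers, the authors deposited spot intensity values from Agilent Feature Extraction 11.0.1.1 (also named in the submitters' processing notes), which had already subtracted the background. A table of processed log2 values, also deposited by the authors, was used as an alternative; its normalization is not given in the sources used here.

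Here, log2 of the processed intensity minus each array's 75th percentile was taken, spots marked as outliers were left out (which emptied 478 probe values), and each probe's remaining spots were averaged. Probe accessions gave 1 symbol for 14294 of 24684 probes, several for 0 and none for 10390. The 21063 probes well above background on at least 3 arrays entered a limma 3.58.1 fit under R 4.3.3 (lmFit, eBayes, day as the only factor, all 12 arrays; 8 residual and 2.32 prior degrees of freedom), with Benjamini-Hochberg adjustment over all probes and calls under 0.05. The scripts were tested on simulated data.

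P450 genes called in any comparison are given with their arrays; of other lists at most 4 called genes are named, by smallest adjusted p. Members and lists were chosen with earlier results of these data known. Alternatives were quantile normalization and normexp (offset 50) on gMedianSignal, since no mean signal was among the columns. Further ones were other filters, the slide (inferred from the scan time) as a block, single days, array weights, all probes of a gene and array omissions. The 250-base promoter windows are RefSeq's (GRCr8), found for 51 of 63 members by symbol. The number of arrays limits the precision. Figures were drawn with Matplotlib 3.10.9.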

Additional observations from a re-analysis of the deposited data

How the results depend on the processing

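The counts of P450 genes called at days 7, 14 and 28 against day 0 (21, 27 and 19) stayed within 1.5 times under quantile normalization, normexp, no filter, a random slide block and the authors' deposited table. Between graft days the counts were 3 (day 14 against 7), 7 (28 against 14) and 1 (28 against 7). With probes above background on all 12 arrays, which tests fewer genes, the 6 counts were 13, 17, 13, 0, 2 and 1. The shares of all such probes called were 36.2%, 42%, 37.7%, 2.22%, 5% and 1.61%. With the slide as a fixed block they were 0, 2, 6, 0, 1 and 0, where 0.261%, 4.91%, 6.47%, 0.133%, 0.589% and 0% of all probes were called. In that fit Cyp4f6 at day 7 turned to -0.15, the only call of the 78 that changed sign under any alternative run. The random slide block gave 0 for days 7 and 28 (0.546% of all probes). Normexp gave 1 for days 7 and 14 (3.65% of all probes), and 4 for days 14 and 28 (5.98%). Using only the arrays of the days compared gave 11 at day 7 (13.7% of all probes were called), 12 for days 14 and 28 (30.2% of all probes, beside 4.48% with all arrays) and 0 for days 7 and 28. Without both non-uniform arrays the graft days gave 5, 10 and 2, where 11.5%, 22.8% and 4.43% of all probes were called. Of the 78 calls, 14 ended with normexp and 20 with only the arrays of the days compared. Array weights gave 28, 30 and 28 against day 0, where 50.5%, 51% and 54.1% of all probes were called. They gave 30, 41 and 41 between graft days, where 63.2%, 77.1% and 83.4% of all probes were called. Their estimation stopped before convergence, with weights from 0.0795 to 86.8. Leaving out each array in turn gave 14 to 24, 15 to 29, 15 to 24, 1 to 5, 2 to 9 and 0 to 2. Against day 0, counts moved by 1.5 times or more without day 0 replicate 2 (14 at day 7) and without day 14 replicate 1 or 3 (15 at day 14). Calls over all probes fell as well. They were 29% at day 7 without day 0 replicate 2, beside 33.1% with all arrays. At day 14 they were 27.2% without day 14 replicate 1 or 3, beside 37.5%. For day 14 against 7 the P450 counts were 1 without day 14 replicate 1 and 2 without day 7 replicate 1 or 2 or day 14 replicate 3. Those fits called 1.07% to 1.36% of all probes, beside 3.26% with all arrays. The count was 5 without day 7 replicate 3 (6% of all probes). For day 28 against 14 the counts were 2 without day 14 replicate 1 and 4 without day 28 replicate 3. They were 3 without day 7 replicate 1, day 14 replicate 2 or 3 or day 28 replicate 1 or 2. All these fits called 0.774% to 2.49% of all probes, beside 4.48% with all arrays. For day 28 against 7 they were 2 without day 0 replicate 1 or 3 or day 28 replicate 2, and 0 when any other single array was left out. Omitting 1 array from a day leaves 2 and fewer degrees of freedom; the cause of other changes was not tested. The share of higher calls among all probes called for day 14 against 7 was 42.2%, and 54.8% with normexp; for day 28 against 7 it was 42.1%, and 53.6% in the authors' deposited table. The median of all probes moved to -0.11 at days 7 and 28 with no filter. No paired analysis was possible because the labels give every array the same replicate number. Dim probes limit the data: 20 of the 51 tested genes were above background on fewer than 12 arrays.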
